A study of Rattus norvegicus with 9 samples.

Results

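Voltage-gated and inward rectifier potassium channels and connexins set how a ventricular myocyte repolarizes and how the impulse passes to its neighbour. Kcnd2 and Kcnd3 encode the pore subunits Kv4.2 and Kv4.3 of the fast transient outward current, and Kcnip2 encodes KChIP2, the subunit that brings them to the membrane. Kcnj2 encodes Kir2.1 of the inward rectifier current that holds the resting potential. Kcnj11 encodes Kir6.2, the pore of the ATP-sensitive channel. Kcnq1 and Kcnh2 encode the pores of the slow and the rapid delayed rectifier. Gja1 encodes connexin 43, the main gap junction protein of working ventricular muscle, and Gja5 encodes connexin 40, which is made in atrial muscle, the fast conduction system and arterial endothelium. Lower transient outward and delayed rectifier transcripts and a rearranged connexin 43 are textbook features of the failing ventricle.

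These 9 genes were looked up by name in the expression table of 35843 genes, and the row with the highest mean was to be taken where a name occurred more than once. Of the 9 genes, 8 had a row, each a single one. No row carried the name Kcnd2, which was not analysed here. Adult male Sprague-Dawley rats had the left anterior descending coronary artery tied for good (group MI) or the same operation without the ligature (group Sham), and both groups received saline by gavage. Rats of group MI + DAPA (1st d) had the ligature and received dapagliflozin, an inhibitor of the sodium-glucose cotransporter SGLT2, by daily gavage from the first day after the operation. Poly-A RNA of heart tissue was sequenced at day 28 from 3 rats a group, 9 in all. The title of each sample carries a pair of names whose meaning the labels do not give. The labels say heart, while the study's methods name the left ventricle and give 3 biological replicates a group. The study calls the sequenced tissue normal myocardium in group Sham and infarct myocardium in both ligated groups, and takes most other molecular work from the infarct border, so the share of scar in each piece is not known.

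The values are FPKM, fragments scaled for gene length and by 1 factor per library, so that levels can be set side by side between genes. That factor was not the total of reads, as given further on. The low FPKM values were whole multiples of what 1 read was worth, and the recovered totals were 13597239 to 17210909 reads a rat. Reads outside the mitochondrial genome numbered 5702454 to 6570698 in group Sham, 12635945 to 13171891 in group MI and 11440726 to 12082280 in group MI + DAPA (1st d). The mitochondrial share of reads was 61.1% to 66.9%, 7.07% to 19.1% and 17.5% to 32.0%, so low transcripts were measured with the fewest reads in group Sham. The 13 cardiomyocyte markers found, out of 15 listed, were all above 0. Their summed level was 9433 to 13535 FPKM in group Sham, 2980 to 15561 in group MI and 12259 to 25984 in group MI + DAPA (1st d). MI rat 2 stood apart, with the lowest mitochondrial share, the lowest cardiomyocyte sum, the highest macrophage sum of 3106 FPKM against 1706 and 1774 in the other MI rats, and a T and B cell sum of 145 FPKM against 10.1 and 32.5. For several members the differences are given with and without this rat. Genes outside the members are given with it only.

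In group Sham the order of mean levels was Gja1 at 27.9 ± 4.79 FPKM (SD, n = 3), Gja5 at 8.02 ± 0.961, Kcnh2 at 5.85 ± 2.45, Kcnd3 at 5.60 ± 3.32, Kcnj11 at 5.43 ± 0.680, Kcnq1 at 5.32 ± 2.28, Kcnip2 at 0.929 ± 0.353 and Kcnj2 at 0.297 ± 0.138. Gja1 was above Gja5, Kcnq1 above Kcnip2 and Kcnip2 above Kcnj2 in every Sham rat, whereas the 5 genes from Gja5 to Kcnq1 each overlapped with the next in the order. In group MI the order was Gja1, Gja5, Kcnj11, Kcnq1, Kcnh2, Kcnj2, Kcnd3 and Kcnip2. Kcnd3 had gone from the fourth place to the seventh, and its 3 MI values lay below those of Kcnj2. In group MI + DAPA (1st d) the order was Gja1, Kcnj11, Gja5, Kcnq1, Kcnh2, Kcnj2, Kcnip2 and Kcnd3, with Kcnj11 and Gja5 overlapping and both above Kcnq1 on average.

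**Figure D1:**
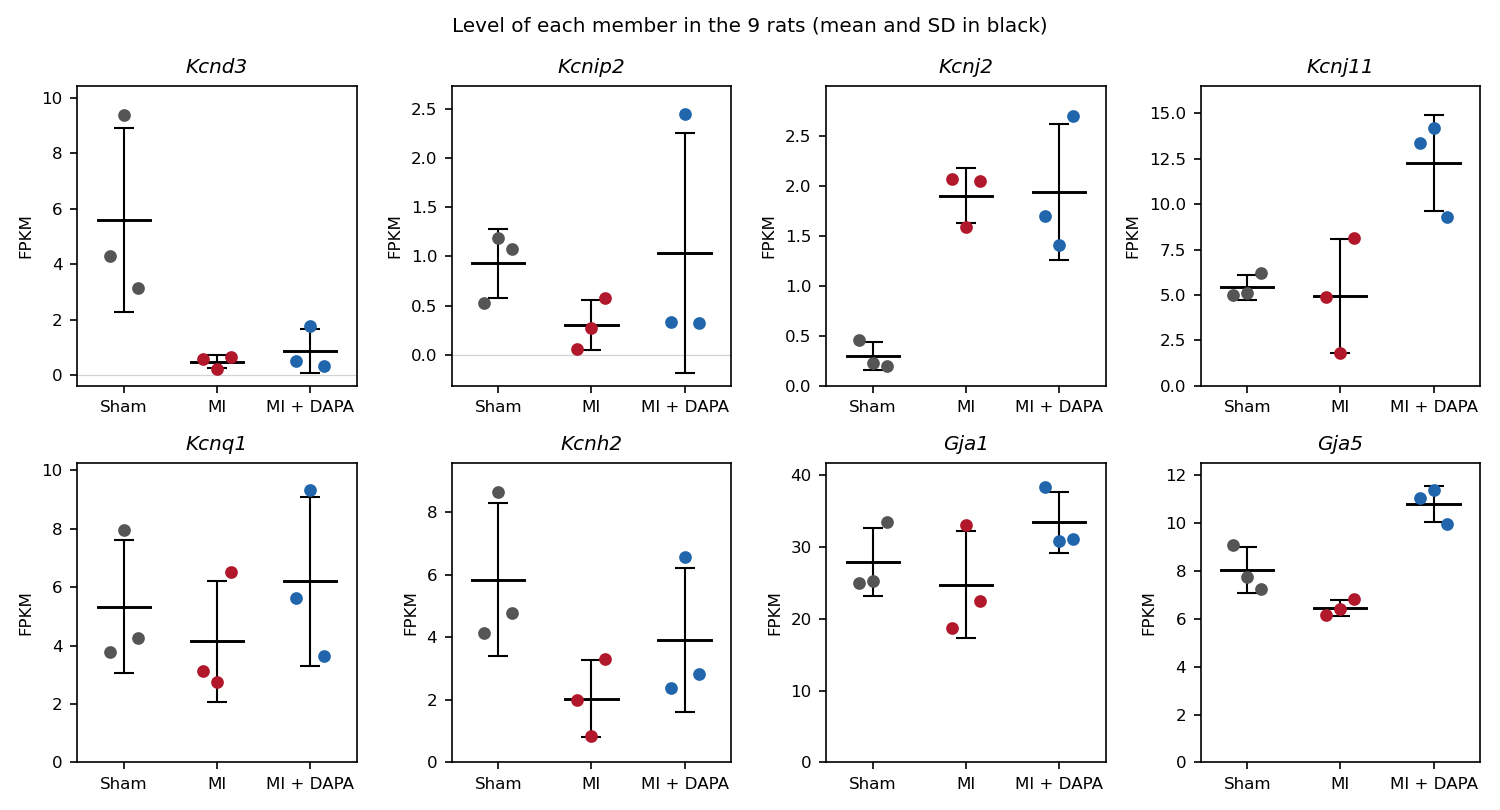
FPKM of the 8 genes in each of the 9 rats by group, 1 point per rat, with the group mean as a black line and its SD as a bar. Kcnd3 fell from 3.15 to 9.37 FPKM in group Sham to 0.208 to 0.643 in group MI, Kcnj2 went from 0.203 to 0.455 up to 1.59 to 2.07, and the 3 treated rats lie highest for Kcnj11 and Gja5.

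Genes were tested with limma on log2(FPKM + 1) where at least 3 of the 6 rats of a comparison reached 1 FPKM, and a gene was called at an unadjusted p under 0.05 with an absolute log2 fold change over 1. In MI vs. Sham, 7 of the 8 genes entered the test. Kcnd3 and Kcnh2 were called lower, where 10.3% of all 13485 genes tested were, and Kcnj2 was called higher, where 12.1% were. These 3 also passed a Benjamini-Hochberg adjusted p of 0.05, which 39% of all genes did. In MI + DAPA (1st d) vs. MI, 6 genes entered and Kcnj11 alone was called higher, against 0.951% of the 13251 genes tested. None was called lower, against 1.11%. No gene of the table passed the adjusted threshold in that limma fit (0%), while 8.49% of genes and 2 of the 6, Kcnj11 and Gja5, had an unadjusted p under 0.05. In MI + DAPA (1st d) vs. Sham, all 8 entered, Kcnj2 and Kcnj11 were called higher (9.54% of 13359 genes) and Kcnd3 lower (8.16%), and these 3 passed the adjusted threshold (28.6%). With 3 rats a group these counts describe these animals, and both comparisons with the infarcted rats share group MI, as both comparisons with the sham rats share group Sham.

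**Figure D2:**
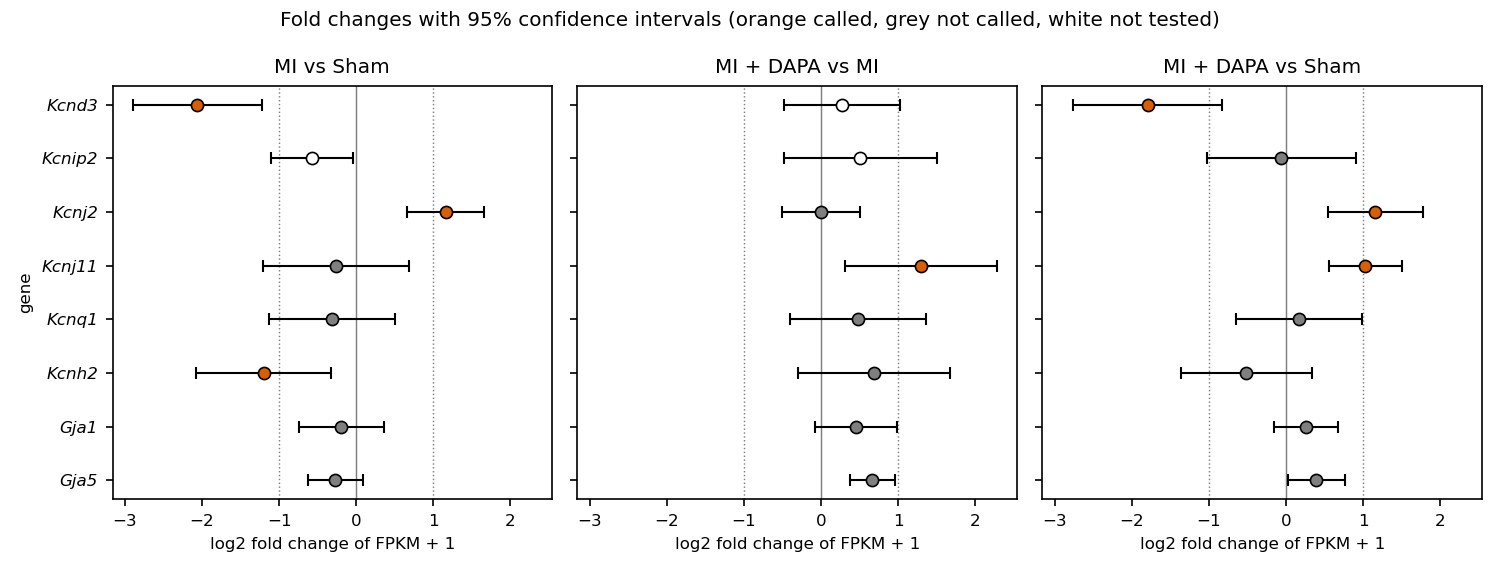
Log2 fold changes of FPKM + 1 with 95% confidence intervals from limma for the 8 genes in each comparison, 3 rats a group. Orange points were called, grey ones were not, and white ones did not reach the level needed for testing, so their values come from the fit without that filter. Dotted lines mark the fold threshold of 1. Kcnd3 lies below -1 and Kcnj2 above 1 against group Sham in both infarcted groups.

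Kcnd3, the Kv4.3 pore of the transient outward current, showed the deepest fall of the 8 genes. Its levels were 4.27, 9.37 and 3.15 FPKM in Sham rats 1 to 3, 0.569, 0.208 and 0.643 in MI rats 1 to 3, and 0.489, 1.77 and 0.324 in the treated rats 1 to 3. These values came from 189 to 656 reads in group Sham, 25 to 84 in group MI and 40 to 194 in group MI + DAPA (1st d). Every infarcted rat, treated or not, was below every Sham rat, and Sham rat 2 and treated rat 2 were the highest of their groups. The Sham mean was 11.8 times the MI mean and 6.50 times the treated mean. On log2(FPKM + 1), which understates the change of low genes, Kcnd3 fell by 2.06 in MI vs. Sham (SE 0.356, limma, adjusted p = 0.0052) and by 1.93 without MI rat 2. Since no MI rat reached 1 FPKM, Kcnd3 entered this test only through the group in which it was high, and it could not be tested once any 1 Sham rat was left out. In treated vs. Sham rats it fell by 1.79 (SE 0.416, limma, adjusted p = 0.018). Between treated and MI rats the values overlapped, and the difference without the level filter was 0.27 (95% interval -0.48 to 1.03). In bulk tissue, fewer cells of a type and less RNA per cell cannot be told apart.

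The 250 bases in front of the Kcnd3 start are shown because this gene moved most. RefSeq promoter sequences on GRCr8 were found for Kcnd3, Kcnip2, Kcnj2, Gja1 and Gja5 of the 8 genes. The table was searched on both strands for 4 motifs, and the capitals mark the matches. They are the GC box (GGGCGG), the E-box (CANNTG), the TATA box (TATAAA) and a GATA site (AGATAA), which occur in 30.5%, 65.5%, 12.9% and 10.3% of the 33469 promoters of the same length. The Kcnd3 stretch, on the plus strand at chr2:195626066-195626315, held 1 GC box, read on the opposite strand, and none of the other 3 motifs. It was 79.6% G and C, which put it at percentile 98.9 of all promoters. A match is a description of the letters.
Kcnd3: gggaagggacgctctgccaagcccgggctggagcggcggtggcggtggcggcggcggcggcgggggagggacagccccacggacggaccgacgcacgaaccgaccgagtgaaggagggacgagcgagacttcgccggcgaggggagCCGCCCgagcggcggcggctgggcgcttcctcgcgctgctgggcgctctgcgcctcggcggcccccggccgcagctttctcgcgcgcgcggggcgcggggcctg

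Kcnip2, the KChIP2 subunit, was a low transcript in every group. Sham rats 1 to 3 had 0.526, 1.19 and 1.07 FPKM, MI rats 0.0611, 0.267 and 0.575, and treated rats 0.334, 2.45 and 0.326. The 3 MI values rest on 3, 12 and 28 reads, and an exact Poisson interval for 3 reads runs from 0.619 to 8.77 reads. MI and Sham rats overlapped through MI rat 3 and Sham rat 1, and treated rat 2 was the highest of all 9. Kcnip2 did not reach the level needed for a test in MI vs. Sham, where the fit without that filter gave -0.57 (SE 0.219, limma, adjusted p = 0.127), nor in treated vs. MI rats. Against group Sham the treated rats differed by -0.06 (95% interval -1.03 to 0.91), and the sign turned to positive without treated rat 1 or 3. The ratio of Kcnip2 to Kcnd3 was 0.123, 0.127 and 0.341 in Sham rats 1 to 3, 0.107, 1.29 and 0.894 in MI rats and 0.683, 1.38 and 1.01 in treated rats. All treated ratios were above all Sham ratios, by 5.63 times on the geometric mean (exact permutation p = 0.1, two-sided, the smallest that 3 against 3 allows). MI and Sham ratios overlapped through MI rat 1, the rat with 3 reads.

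The transient outward and delayed rectifier genes peaked in the same rat of each group. Sham rat 2 had the highest Kcnd3, Kcnip2, Kcnq1 and Kcnh2 of group Sham, and MI rat 3 and treated rat 2 the highest of all 4 in their groups. What sets these rats apart was not tested.

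Kcnj2, the Kir2.1 channel, was the member that rose after ligation. Its levels were 0.455, 0.232 and 0.203 FPKM in Sham rats 1 to 3, 2.07, 1.59 and 2.05 in MI rats and 1.70, 1.41 and 2.70 in treated rats. These rest on 8, 4 and 3 reads in group Sham and on 38 to 82 reads in the infarcted rats. No infarcted rat overlapped with a Sham rat, and the MI mean was 6.40 times and the treated mean 6.52 times the Sham mean. On log2(FPKM + 1) the rise was 1.16 in MI vs. Sham (SE 0.212, limma, adjusted p = 0.0062) and 1.16 in treated vs. Sham rats (SE 0.267, limma, adjusted p = 0.0176). Kcnj2 likewise entered these tests only through the group in which it was high, since no Sham rat reached 1 FPKM, and it could not be tested once any 1 infarcted rat of the comparison was left out. Treated and MI rats differed by -0.003 on log2(FPKM + 1), with a 95% interval of -0.51 to 0.51.

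Some markers of other cells were, like Kcnj2, higher after ligation. Over the 9 rats the genes whose log2(FPKM + 1) followed it most closely, among 14157 compared, were Cntn2, a cell adhesion molecule of the conduction system and of neurons (r = 0.989), and Rgs5, a pericyte regulator of G protein signalling (r = 0.989). These are descriptions over 9 points that fall into groups. Cntn2 was 0.193 to 0.316 FPKM in group Sham, 1.93 to 3.29 in group MI and 1.83 to 4.27 in treated rats, and Rgs5 was 36.7 to 46.6, 163 to 225 and 140 to 277. Of the 7 smooth muscle and pericyte markers, 2 were called higher in MI vs. Sham, and their summed level overlapped between groups (366 to 1439, 717 to 978 and 630 to 949 FPKM). All 10 fibroblast markers and all 8 macrophage markers were called higher in MI vs. Sham. Fibroblast sums were 532 to 860 FPKM in group Sham, 4113 to 8106 in group MI and 2596 to 4589 in treated rats, and macrophage sums were 123 to 435, 1706 to 3106 and 949 to 1698. In treated vs. MI rats, where Kcnj2 was level, 0 of the 10 fibroblast and 0 of the 8 macrophage markers had a positive log2 fold change (medians -0.50 and -0.78). The part of these cells in the Kcnj2 level was not tested.

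The Kcnj2 promoter stretch is shown beside that of Kcnd3, since these genes moved in opposite directions. It lay on the plus strand at chr10:96559975-96560224, was 66.0% G and C (percentile 86.8), and held 1 GC box and 2 E-boxes.
Kcnj2: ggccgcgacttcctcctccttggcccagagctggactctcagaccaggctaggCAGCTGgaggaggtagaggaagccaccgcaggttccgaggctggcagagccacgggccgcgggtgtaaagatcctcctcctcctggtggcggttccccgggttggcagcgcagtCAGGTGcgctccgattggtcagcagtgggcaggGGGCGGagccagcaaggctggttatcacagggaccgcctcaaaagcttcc

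Kcnj11, the Kir6.2 pore of the ATP-sensitive channel, was the member called higher under dapagliflozin. Sham rats 1 to 3 had 4.98, 5.10 and 6.21 FPKM, MI rats 4.90, 1.83 and 8.13, and treated rats 13.3, 14.2 and 9.27. Every treated rat was above every MI rat and every Sham rat, while MI rats spread around the Sham range with MI rat 2 lowest. The treated mean was 2.48 times the MI mean and 2.26 times the Sham mean. Against group MI the rise was 1.29 on log2(FPKM + 1) (SE 0.416, limma, adjusted p = 0.558), and it was 0.83 without MI rat 2, below the fold threshold. Without treated rat 1 or treated rat 2 it no longer passed the unadjusted threshold. Against group Sham the rise was 1.03 (SE 0.202, limma, adjusted p = 0.0102). That value sat at the fold threshold, and it was 0.92 to 0.99 when Sham rat 1, Sham rat 2, treated rat 1 or treated rat 2 was left out. MI and Sham rats differed by -0.26 (95% interval -1.21 to 0.68).

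Kcnj11 followed the abundant muscle genes. The 3 genes closest to it over the 9 rats were Mb, the oxygen store myoglobin (r = 0.987), Ldhb, the heart subunit of lactate dehydrogenase (r = 0.984), and Myl3, the ventricular essential myosin light chain (r = 0.982). The mean of Mb was 2187 FPKM in Sham rats, 2366 in MI rats and 5529 in treated rats. All 13 cardiomyocyte markers had a positive log2 fold change in treated vs. MI rats, 2 of them were called higher, and their median of 1.31 stood beside -0.02 over all genes. The part of the cardiomyocyte share in the Kcnj11 level was not tested beyond the scaling to Tnnt2 given further on.

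The other subunits of the ATP-sensitive channel followed the course of Kcnj11 only in part. Abcc8, the sulphonylurea receptor SUR1, was 3.25 to 5.02 FPKM in group Sham, 0.215 to 1.00 in group MI and 1.304 to 2.27 in treated rats, and was called lower in MI vs. Sham (fell by 1.60, limma, adjusted p = 0.0044), a test it entered only through group Sham. Abcc9, the receptor SUR2, was 19.0 to 28.3, 26.5 to 29.5 and 25.1 to 27.9 FPKM, with overlap in every comparison. Kcnj8, the Kir6.1 pore found in vessels, was 29.8 to 31.4, 18.0 to 21.7 and 22.2 to 31.0 FPKM, with all MI rats below all other rats. In treated vs. MI rats Abcc8 was higher by 0.66 (limma, adjusted p = 0.558) and Kcnj8 by 0.32 (limma, adjusted p = 0.564). Both were under the fold threshold, with every treated rat above every MI rat. Abcc8 entered that test only through the treated group. The ratio of Kcnj11 to Kcnj2 was 10.9, 22.0 and 30.6 in Sham rats 1 to 3, 2.37, 1.15 and 3.97 in MI rats, and 7.87, 10.1 and 3.44 in treated rats. Both infarcted groups lay below group Sham, by 8.79 times in group MI and 3.00 times in treated rats (exact permutation p = 0.1 for each, 0.24 adjusted over the 12 ratio tests). Treated and MI ratios overlapped (exact permutation p = 0.2).

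Kcnh2, the pore of the rapid delayed rectifier, fell after ligation. Sham rats 1 to 3 had 4.13, 8.66 and 4.76 FPKM, MI rats 1.99, 0.829 and 3.30, and treated rats 2.38, 6.57 and 2.83. All MI rats were below all Sham rats, and the Sham mean was 5.85 against 2.04 in group MI. On log2(FPKM + 1) Kcnh2 fell by 1.20 (SE 0.372, limma, adjusted p = 0.0398). The call rested on single rats, since the fall was 0.88 without MI rat 2 and 0.92 without Sham rat 2, in both cases under the fold threshold. Treated rats spanned from the MI range into the Sham range and differed from group MI by 0.68 (95% interval -0.29 to 1.66) and from group Sham by -0.51 (95% interval -1.37 to 0.34). The genes nearest to Kcnh2 over the 9 rats were Anapc7, a subunit of the anaphase promoting complex (r = 0.979), and Gnb3, a G protein beta subunit (r = 0.978).

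Kcnq1, the pore of the slow delayed rectifier, was called in no comparison. Its levels were 3.79, 7.94 and 4.24 FPKM in Sham rats 1 to 3, 3.14, 2.77 and 6.51 in MI rats and 5.64, 9.32 and 3.63 in treated rats, and all 3 groups overlapped. MI and Sham rats differed by -0.31 on log2(FPKM + 1), with a 95% interval of -1.12 to 0.50 that does not leave out a change of 1 in the downward direction. Within a rat, Kcnh2 and Kcnq1 were close to level in group Sham and no longer so after ligation. The ratio of Kcnh2 to Kcnq1 was 1.09, 1.09 and 1.12 in Sham rats 1 to 3, 0.634, 0.2996 and 0.507 in MI rats, and 0.422, 0.705 and 0.778 in treated rats. The 3 Sham ratios lay this close together although Kcnh2 itself ranged from 4.13 to 8.66 FPKM in the same rats. MI ratios were 2.40 times and treated ratios 1.79 times lower than Sham ratios on the geometric mean, with no overlap (exact permutation p = 0.1 for each, 0.24 adjusted over 12 tests). MI rat 2 had the lowest ratio. With 1 rat left out, the log2 difference of -1.26 in MI vs. Sham ran from -1.50 to -0.96. Treated and MI ratios overlapped (exact permutation p = 0.4).

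**Figure D3:**
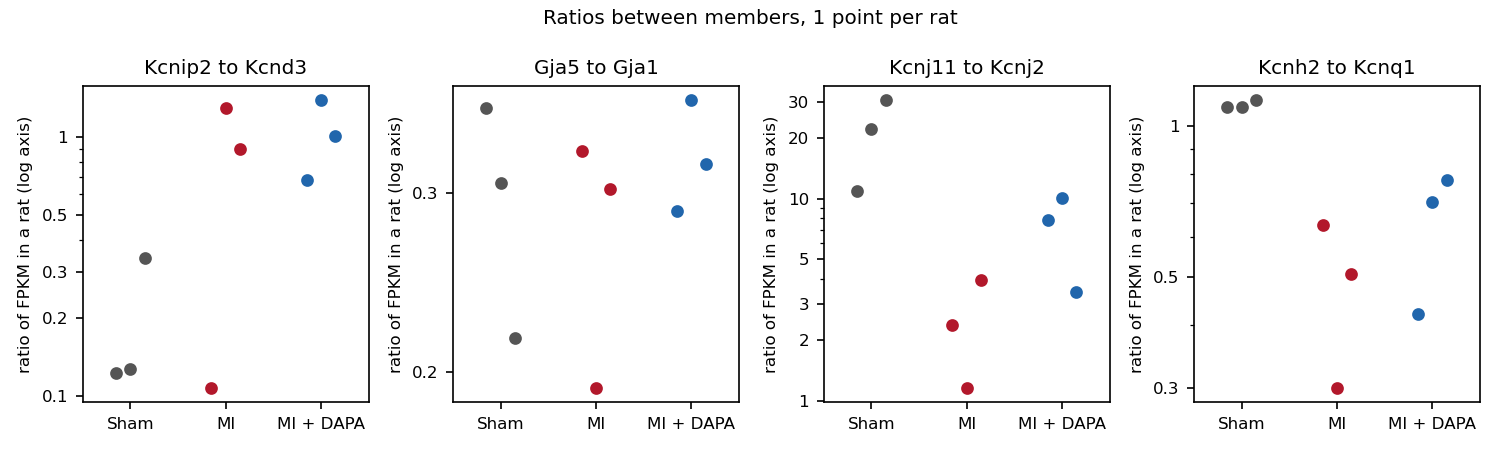
Ratio of FPKM between members in the same rat on log axes, 1 point per rat. The 3 Sham rats lie between 1.09 and 1.12 for Kcnh2 to Kcnq1, above all infarcted rats, and between 10.9 and 30.6 for Kcnj11 to Kcnj2, while Gja5 to Gja1 overlaps among the 3 groups.

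Gja1, connexin 43, was the most abundant member and was called in no comparison. Its levels were 25.1, 25.3 and 33.4 FPKM in Sham rats 1 to 3, 18.7, 33.1 and 22.5 in MI rats and 38.4, 30.9 and 31.1 in treated rats. MI rat 2, the rat with the fewest cardiomyocyte transcripts, had the highest Gja1 of group MI. MI and Sham rats differed by -0.19 (95% interval -0.74 to 0.36) and treated and MI rats by 0.45 (95% interval -0.08 to 0.98). Without MI rat 2 these were -0.41 and 0.67, both under the fold threshold. Transcript levels say nothing of where connexin 43 lies in the cell.

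Gja5, connexin 40, did not overlap between any 2 of the 3 groups. Sham rats 1 to 3 had 9.09, 7.74 and 7.22 FPKM, MI rats 6.15, 6.40 and 6.81, and treated rats 11.04, 11.4 and 9.96. Every MI rat was below every Sham rat, and every treated rat above all others. The MI mean of 6.45 ± 0.333 FPKM was 0.804 times the Sham mean of 8.02 ± 0.961, and the treated mean of 10.8 ± 0.749 was 1.67 times the MI mean and 1.35 times the Sham mean (SD, n = 3). None of these reached the fold threshold. In treated vs. MI rats the difference was 0.66 on log2(FPKM + 1) (SE 0.123, limma, adjusted p = 0.558) and 0.66 without MI rat 2. In MI vs. Sham it was -0.27 (SE 0.151, limma, adjusted p = 0.193), and in treated vs. Sham rats 0.39 (SE 0.160, limma, adjusted p = 0.106). The ratio of Gja5 to Gja1 was 0.216 to 0.363 in group Sham, 0.193 to 0.329 in group MI and 0.288 to 0.369 in treated rats, with overlap throughout (exact permutation p = 0.5 to 0.6).

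Connexin 40 is made by arterial endothelium and by atrial or conduction muscle. The 6 arterial endothelial markers summed to 139 to 158 FPKM in group Sham, 44.5 to 64.4 in group MI and 74.3 to 82.7 in treated rats. In MI vs. Sham 3 of them were called lower. In treated vs. MI rats 1 was called higher, and all 6 had a positive log2 fold change (median 0.49, beside -0.02 over all genes). On this sum the treated rats lay between the other groups, and on Gja5 they lay above both. The 7 endothelial markers found, out of 8, summed to 974 to 1176, 279 to 366 and 379 to 421 FPKM. The 8 atrial and conduction markers, a list that includes Nppa, which ventricular muscle also makes under load, summed to 80.9 to 209, 641 to 7253 and 4237 to 8808 FPKM, and 1 of the 6 tested was called higher in treated vs. MI rats. Nppa alone gave 65.9 to 199.7, 626 to 7169 and 4154.5 to 8660 FPKM of that sum. Bmp10, an atrial marker, was at 0.288 FPKM or less in every rat. Sln, the atrial sarcolipin, had means of 2.30, 0.469 and 2.06 FPKM and overlapped among the groups. Myl7, Myl4, Hcn4, Cacna1g and Cntn2 had their highest means in treated rats. The means were 2.20, 6.21 and 14.9 FPKM for Myl7 and 8.64, 29.3 and 72.7 for Myl4. All 6 markers tested in treated vs. MI rats had a positive log2 fold change (median 1.01, beside -0.02 over all genes). In treated vs. Sham rats 5 of 7 were called higher, where 9.54% of all genes were. The part of these cells in the Gja5 level was not tested. The Gja5 promoter stretch is shown because this gene set the 3 groups apart. It lay on the plus strand at chr2:187290977-187291226, was 54.8% G and C (percentile 62.0), and was the only one of the 5 with a match to the TATA box, read on the opposite strand 178 bases before the start, beside 1 GC box.
Gja5: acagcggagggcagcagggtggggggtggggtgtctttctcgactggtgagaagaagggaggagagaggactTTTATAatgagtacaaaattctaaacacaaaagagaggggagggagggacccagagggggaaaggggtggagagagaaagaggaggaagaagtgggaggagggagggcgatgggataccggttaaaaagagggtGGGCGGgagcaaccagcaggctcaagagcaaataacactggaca

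Counting members whose rats did not overlap, 1 of the 7 tested was above (27.1% of all genes) and 3 below (27.5%) in MI vs. Sham, namely Kcnj2 above and Kcnd3, Kcnh2 and Gja5 below. In treated vs. MI rats, 2 of the 6 tested were above, Kcnj11 and Gja5 (6.63%), and none below (7.16%). In treated vs. Sham rats, Kcnj2, Kcnj11 and Gja5 were above (23.2%) and Kcnd3 below (23.3%). All 8 genes had a higher mean in treated than in MI rats, Kcnj2 only by 1.94 against 1.90 FPKM. In MI vs. Sham 7 of the 8 had a lower mean. The share of all genes was not counted for these directions, so nothing particular to the members is read from them. On the scale relative to Tnnt2 given below, 2 of the 8 were higher in treated than in MI rats and 5 of the 8 higher in MI than in Sham rats. The median log2 fold change of the members tested was -0.27 in MI vs. Sham beside -0.01 over all genes, 0.57 in treated vs. MI rats beside -0.02, and 0.21 in treated vs. Sham rats beside 0.01.

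Tnnt2, cardiac troponin T, was taken as a reference for the cardiomyocyte content of each piece. The 13 cardiomyocyte markers did not move alike in MI vs. Sham. Of them 3 were called lower, among them Tnni3 (-2.32) and Myh6 (-2.43), and 3 had a positive log2 fold change, among them Actc1 (0.86). Values relative to Tnnt2 therefore depend on the gene chosen as the reference. Tnnt2 was 2007, 2155 and 2685 FPKM in Sham rats 1 to 3, 1510, 489 and 2486 in MI rats and 4410, 4014 and 1890 in treated rats. All 3 groups overlapped, and MI rat 2 was the lowest of the 9. Dividing by Tnnt2 moved all genes, since the median log2 fold change of all genes became 0.88 in MI vs. Sham, -1.41 in treated vs. MI rats and -0.50 in treated vs. Sham rats. The same Tnnt2 value is taken from every gene of a rat. A member set against these shifts therefore gives back its unscaled difference and says nothing of cardiomyocyte content. Because the error of 1 gene enters every ratio, limma p-values on this scale are too small.

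Per 1000 FPKM of Tnnt2, Kcnj11 was 2.48, 2.37 and 2.31 in Sham rats 1 to 3, 3.24, 3.74 and 3.27 in MI rats and 3.03, 3.54 and 4.91 in treated rats. MI rats were 1.43 times and treated rats 1.57 times above Sham rats on the geometric mean, with no overlap (exact permutation p = 0.1 for each). By limma the differences were 0.62 in MI vs. Sham (95% interval -1.06 to 2.31) and 0.52 in treated vs. Sham rats (95% interval -0.54 to 1.58). Treated and MI rats, which did not overlap in FPKM, overlapped on this scale (1.10 times, exact permutation p = 0.7). The limma difference was -0.10 there (95% interval -1.95 to 1.75). Its sign turned with a pseudocount of 0.1 and with the mean of the cardiomyocyte list as the reference. The MI spread from 1.83 to 8.13 FPKM became 3.24 to 3.74.

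Kcnd3 and Kcnj2 did not overlap with group Sham on this scale either. Per 1000 FPKM of Tnnt2, Kcnd3 was 1.17 to 4.35 in group Sham, 0.259 to 0.424 in group MI and 0.111 to 0.441 in treated rats, with both infarcted groups below every Sham rat (exact permutation p = 0.1 for each). Kcnj2 was 0.0756 to 0.227 in group Sham, 0.825 to 3.24 in group MI and 0.351 to 1.43 in treated rats, with both infarcted groups above. Kcnh2 was 1.77 to 4.02, 1.32 to 1.70 and 0.539 to 1.64, with both infarcted groups below. Gja1 was 11.7 to 12.5 in group Sham, 9.06 to 67.7 in group MI and 7.69 to 16.5 in treated rats. Its MI maximum was MI rat 2, and the other MI rats had 12.4 and 9.06. Gja5, Kcnq1 and Kcnip2 overlapped among all groups.

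By limma on the Tnnt2 scale, Kcnj2 alone was called higher in MI vs. Sham (2.05, limma, adjusted p = 0.174), where 18% of genes were, and no member was called lower, where 0.979% were. The Kcnj2 call was lost when any 1 Sham rat was left out. Without MI rat 2 Kcnj2 was not tested and Kcnd3 was called lower (-1.70), as it also was with a pseudocount of 0.1 (-2.37). Rats did not overlap for Kcnj2 and Kcnj11 above (27.2% of genes) and for Kcnd3 and Kcnh2 below (3.57%). In treated vs. MI rats no member was called in either direction, against 0% higher and 10.2% lower, and no member tested was free of overlap, against 0.0302% above and 10.9% below. None of the 6 tested had an unadjusted limma p under 0.05 in that fit. In treated vs. Sham rats Kcnd3 alone was called lower (fell by 2.30, limma, adjusted p = 0.0032), against 19.6% of genes, and none was called higher, against 3.49%. Rats did not overlap for Kcnj2 and Kcnj11 above (5.64%) and for Kcnd3 and Kcnh2 below (23.2%).

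**Figure D4:**
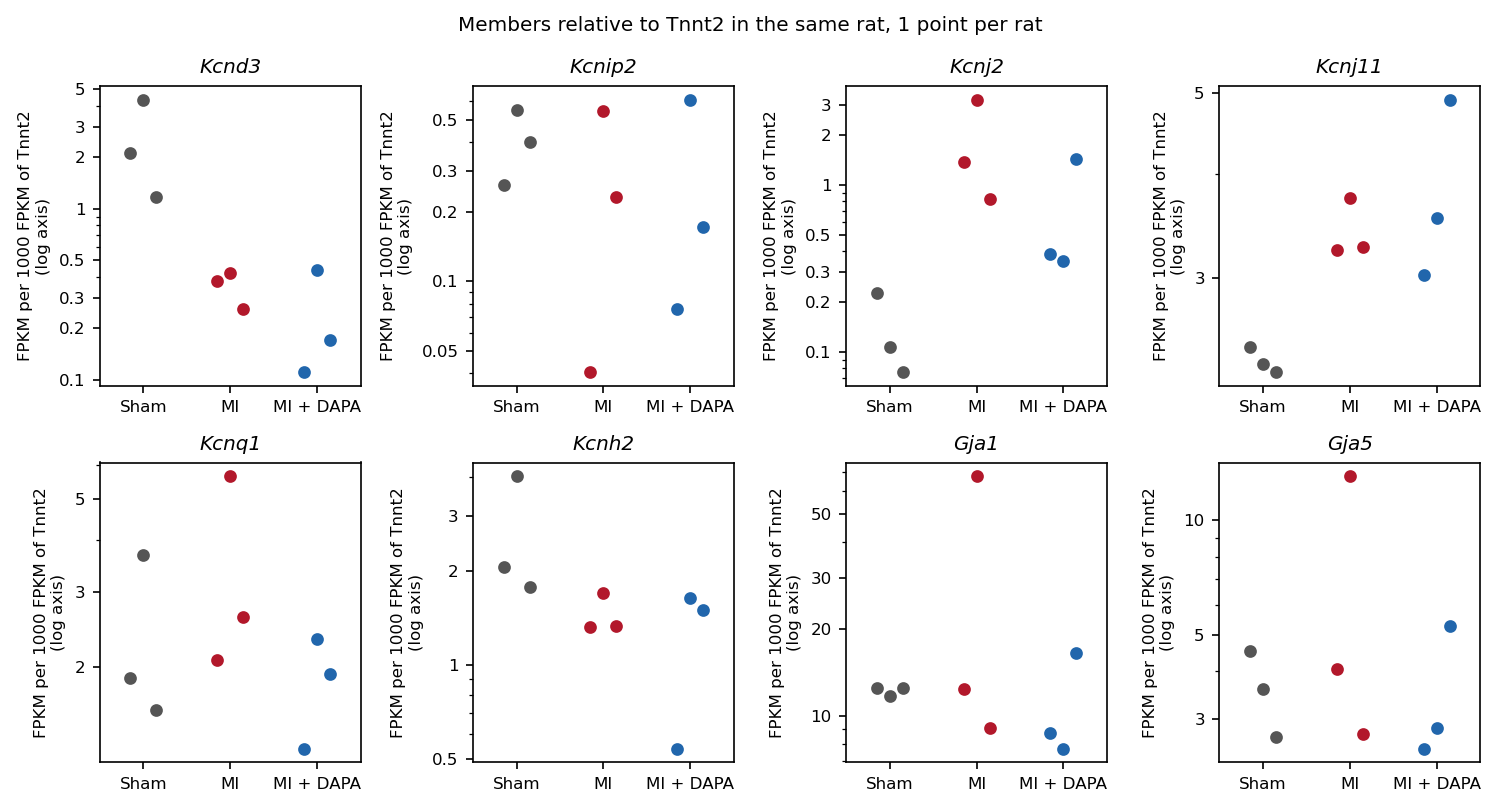
FPKM of the 8 genes per 1000 FPKM of Tnnt2 in the same rat, on log axes, 1 point per rat. Kcnj11 lies between 2.31 and 2.48 in the 3 Sham rats and at 3.03 or more in every infarcted rat, and MI rat 2 is the highest MI point for all 8 genes.

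FPKM here were not divided by the total of reads. The denominator of a library was 0.512 to 0.619 times its recovered reads in group Sham, 1.19 to 1.299 in group MI and 0.954 to 1.24 in treated rats, and this kept the median gene near 0 in each comparison. Scaled to all recovered reads, mitochondrial ones included, the median gene rose by 0.92 in MI vs. Sham and by 0.74 in treated vs. Sham rats. This scaling multiplies all genes of a rat by 1 factor, which cancels against the median gene except through the pseudocount. Values against that median are therefore no separate check. In MI vs. Sham they were -2.32 for Kcnd3, -1.30 for Kcnh2 and 0.66 for Kcnj2, beside -2.06, -1.19 and 1.17 in the main fit. Gja1, Gja5, Kcnj11 and Kcnq1 were at -0.05, -0.23, -0.29 and -0.35 against it, although the unshifted signs of these 4 turned to positive. The unshifted fall of Kcnh2 was 0.37 under this scaling, and Kcnh2 was no longer called.

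Other electrical genes were taken from 8 lists of channels, connexins, disc proteins and transcription factors. Across the lists 11 of 66 tested genes were called higher and 8 lower in MI vs. Sham, 1 of 66 higher and 1 lower in treated vs. MI rats, and 14 of 64 higher and 3 lower in treated vs. Sham rats. Over all genes the shares were 12.1% and 10.3%, 0.951% and 1.11%, and 9.54% and 8.16%. The lists lay above these shares except for the lower calls in treated vs. Sham rats. They lay furthest above for the higher calls in that comparison. Whether the lists differ from other genes was not tested, and nothing particular to them is read from these counts. Kcnd1, Kcnab2, Kcnk2, Scn2b and Tbx20 entered MI vs. Sham only through the group in which they were high, so that their tests are no independent support of a difference. Among voltage-gated alpha subunits, 1 of 6 tested was called lower in MI vs. Sham. This was Kcna5, the Kv1.5 pore of the ultrarapid current, at 4.81 to 14.0 FPKM in group Sham, 1.13 to 2.86 in group MI and 1.37 to 10.4 in treated rats (fell by 1.94, limma, adjusted p = 0.0094). Kcnd1, the Kv4.1 relative of Kcnd3, went the other way, at 0.673 to 0.892, 1.90 to 2.65 and 1.60 to 1.74 FPKM. Its difference of 0.89 in MI vs. Sham was under the fold threshold with an adjusted limma p of 0.0125, and its MI mean was above that of Kcnd3. Kcng2, a silent Kv6 subunit, was 24.0 to 33.6 FPKM in treated rats against 8.87 to 27.5 in group MI and 6.91 to 10.01 in group Sham, and was called higher in treated vs. Sham rats (1.61, limma, adjusted p = 0.0026). Kcns3 was not called in any comparison.

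Among accessory subunits, 2 of 7 tested were called higher in MI vs. Sham. Kcne4, which inhibits Kcnq1 channels, was 0.181 to 1.52 FPKM in group Sham, 9.05 to 11.03 in group MI and 2.67 to 12.0 in treated rats (2.66 in MI vs. Sham, limma, adjusted p = 0.0013). Kcnab2, a Kv beta subunit, was 0 to 0.723, 1.76 to 8.28 and 0.886 to 1.59 FPKM (1.78, limma, adjusted p = 0.029), with its highest value in MI rat 2. Kcne3 fell by 0.88, under the fold threshold. Kcne1, the minK partner of Kcnq1, was 0.776 to 1.17, 0.581 to 3.30 and 2.34 to 4.35 FPKM, and was called higher in treated vs. Sham rats (1.17, limma, adjusted p = 0.0135).

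Inward rectifier, ATP-sensitive and two-pore channels had 4 of 9 tested genes called lower and 1 higher in MI vs. Sham, with a median of -0.59. Beside Abcc8 the lower ones were Kcnj14, a Kir2 relative of Kcnj2 (3.95 to 4.62 FPKM in group Sham, 0.436 to 1.38 in group MI and 1.20 to 1.58 in treated rats), and the two-pore channels Kcnk2, or TREK-1 (1.79 to 2.25, 0.156 to 0.416 and 0.400 to 0.599 FPKM), and Kcnk3, or TASK-1 (13.3 to 16.8, 3.72 to 8.92 and 9.75 to 15.1 FPKM). Kcnj14 thus fell by 1.46 in the comparison in which Kcnj2 rose, and at 4.27 FPKM on average in group Sham it lay above Kcnj2. Kcnk3 was above every MI rat in every treated rat, by 0.91, under the fold threshold (limma, adjusted p = 0.558). Kcnk13 was called higher in MI vs. Sham (1.31, limma, adjusted p = 0.022). No gene of the list was called in treated vs. MI rats.

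Ca2+-activated potassium channels had no gene called among 5 tested in MI vs. Sham and 4 in each other comparison, and Kcnn4 alone had an unadjusted limma p under 0.05 (0.93 in MI vs. Sham). Kcnn1, Kcnn3 and Kcnmb4 overlapped between all MI and Sham rats. Sodium and HCN channels had 3 of 11 tested genes called higher and 1 lower in MI vs. Sham. Scn2b, a sodium channel beta subunit, was 0 to 0.188 FPKM in group Sham, 1.01 to 2.29 in group MI and 0.175 to 1.28 in treated rats (1.302, limma, adjusted p = 0.0088). The pacemaker channel Hcn4 was 0.329 to 1.01, 0.985 to 9.85 and 4.59 to 11.1 FPKM, and was called higher against group Sham in both infarcted groups. Fgf12, a modulator of sodium channel gating, was the 1 electrical gene outside the members called higher in treated vs. MI rats. It was at 8.13 to 11.2 against 2.07 to 7.81 FPKM (1.02, limma, adjusted p = 0.558). That value sat at the fold threshold, MI rat 2 was the lowest, and the value without this rat is not given. Scn7a was lower in every MI than in every Sham rat, by 0.82, under the fold threshold.

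**Figure D5:**
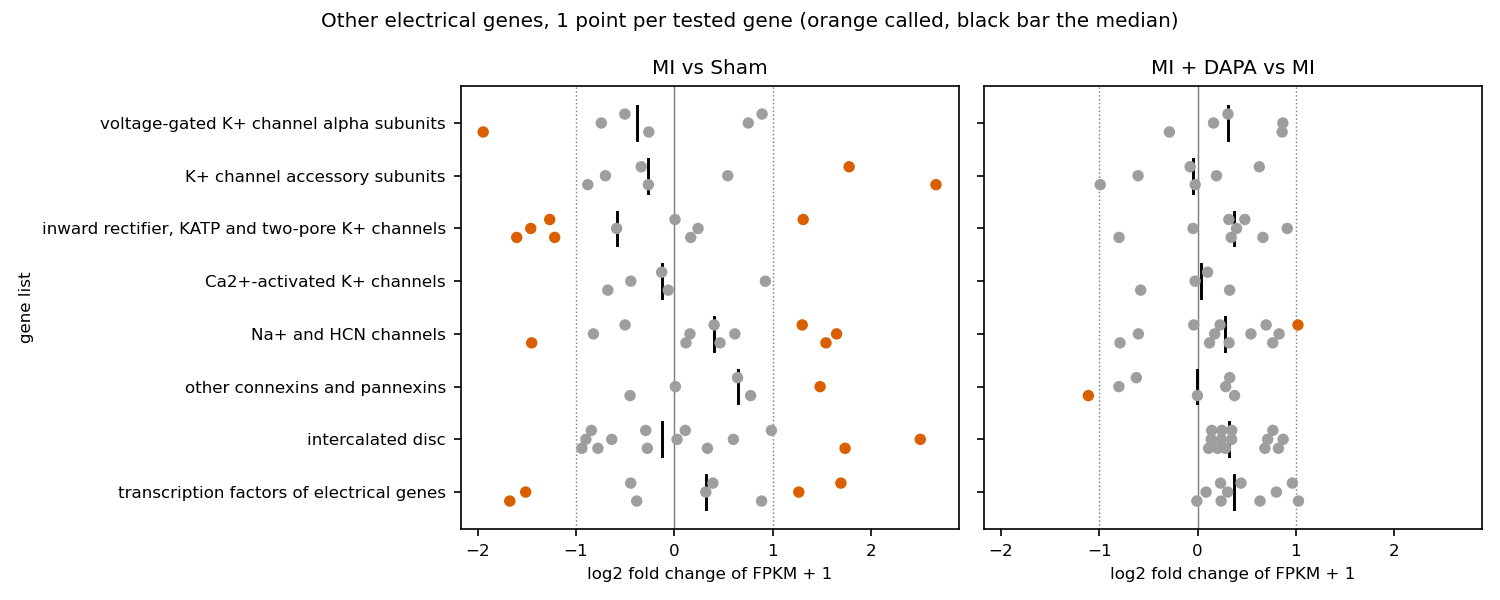
Log2 fold change of FPKM + 1 of each tested gene of the 8 electrical gene lists in MI vs. Sham and in MI + DAPA (1st d) vs. MI, with called genes in orange and the list median as a black bar. In MI vs. Sham 11 genes lie beyond 1 and 8 beyond -1 as called genes, against 1 and 1 in the treated rats.

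Among connexins and pannexins other than the members, 1 of 5 tested was called higher in MI vs. Sham. This was Gjd3, a connexin of low conductance known from the conduction system, at 0.233 to 1.60 FPKM in group Sham, 2.66 to 6.48 in group MI and 0.652 to 2.51 in treated rats (1.48, limma, adjusted p = 0.018). It was also the gene called lower in treated vs. MI rats (fell by 1.11, limma, adjusted p = 0.558). Group MI thus had the highest mean of Gjd3 and the lowest of Gja5. Gjc1, connexin 45, was 13.5 to 16.4, 9.85 to 11.3 and 11.1 to 14.3 FPKM, a difference of -0.45 in MI vs. Sham. Panx1 was above the Sham range in every MI rat and below the MI range in every treated rat, by less than the fold threshold.

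The intercalated disc list, the junction in which Gja1 sits, had 2 of 14 tested genes called higher in MI vs. Sham and none lower. The called ones were Xirp2 (4.28 to 6.54 FPKM in group Sham, 10.95 to 83.5 in group MI and 39.2 to 116 in treated rats) and Des, the muscle intermediate filament desmin (106 to 207, 243 to 958 and 579 to 1466 FPKM). Tjp1, the ZO-1 partner of connexin 43, was 25.7 to 36.9, 15.4 to 17.4 and 18.3 to 21.8 FPKM, and Jup, plakoglobin, 42.9 to 65.2, 26.3 to 36.8 and 37.2 to 41.7 FPKM. Tjp1, Jup and Ank3 were lower in every MI than in every Sham rat by 0.78 to 0.90, under the fold threshold, with adjusted limma p-values of 0.0068 to 0.021. Cdh2, N-cadherin, was 7.43 to 10.4, 12.2 to 27.0 and 24.9 to 34.1 FPKM, and was called higher in treated vs. Sham rats (1.70, limma, adjusted p = 0.0022). All 14 genes had a positive log2 fold change in treated vs. MI rats, with a median of 0.32 beside -0.02 over all genes, and none was called. The 13 cardiomyocyte markers were all positive in that comparison too, with a median of 1.31. The share of all genes with a positive value was not counted, so nothing particular to the disc is read from this.

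Among 9 transcription factors of electrical genes tested in MI vs. Sham, 2 were called lower and 2 higher. Tbx3, a repressor that sets the conduction fate, was 7.36 to 10.7 FPKM in group Sham, 1.12 to 2.80 in group MI and 3.93 to 4.72 in treated rats (fell by 1.67, limma, adjusted p = 0.0038). Irx4, a ventricular factor, was 5.88 to 12.3, 1.08 to 4.06 and 4.18 to 6.48 FPKM (fell by 1.51, limma, adjusted p = 0.021). Tbx20 was 0.172 to 0.879, 1.63 to 8.12 and 3.01 to 6.31 FPKM (1.70, limma, adjusted p = 0.024), and Nkx2-5 was 4.39 to 10.9, 8.51 to 39.5 and 29.4 to 49.9 FPKM (1.27, limma, adjusted p = 0.102). Tbx3, Irx4 and Tbx2 were higher in every treated than in every MI rat, by 0.80, 0.96 and 0.63, under the fold threshold and with adjusted limma p-values of 0.558. Nkx2-5, Xirp2, Des and Hcn4 were named after their values were seen, as were Abcc9 and Kcnj8 beside the members.

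The remaining marker lists were those of T and B cells, nerve and the epicardium. T and B cell markers summed to 8.76 to 13.7 FPKM in group Sham, 10.1 to 145 in group MI and 7.48 to 10.1 in treated rats. The Schwann cell and neuron list summed to 26.4 to 92.5, 35.5 to 62.7 and 25.6 to 60.4 FPKM, with 1 of 8 markers at 0 in every rat, and the epicardial list to 32.7 to 39.7, 9.34 to 94.1 and 9.90 to 14.6 FPKM, again highest in MI rat 2.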

How the data were processed

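Paired-end Illumina sequencing was run on poly-A libraries of heart tissue from 9 rats. In the table deposited by the authors each rat has 1 column of FPKM values, and no column was left out (columns not used, 0). The submitters' processing notes name HISAT2 2.0.5, StringTie 1.3.3b, featureCounts 1.5.0-p3 and DESeq2, without saying what each was used for, and the genome build is not given in the sources used here. Rat numbers are those of the column names. Whole reads were recovered from the FPKM steps, within 0.02 of a whole number, for 18896 of 18896 genes that had values in 4 or more rats. Intervals on reads cover counting error only.

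Groups were compared in pairs with limma 3.58.1 in R 4.3.3 on log2(FPKM + 1), with a trended prior variance and no covariate, for genes at 1 FPKM or more in at least 3 of the 6 rats. Benjamini-Hochberg adjustment ran over all genes tested. Since each title holds a pair of names that no source explains, p-values measure only the spread between these samples, which may be partly technical. Fits relative to Tnnt2 used the difference of log2(FPKM + 1) in each rat. For ratios the test was an exact permutation test, two-sided. Scripts were tested on simulated data. Lists of markers, channels and factors were used, and in each list of electrical genes up to 3 genes with the smallest p in MI vs. Sham and up to 2 in MI + DAPA (1st d) vs. MI were named, except for some genes that are not reported here. The members, lists and tests were chosen with earlier results of these data known.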

Additional observations from a re-analysis of the deposited data

How the results depend on the processing

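The limits here are 3 rats a group, an unknown share of scar in each piece and few reads on Kcnj2 and Kcnip2. Over single genes and ratios, 596 alternative values kept direction and side of the threshold, 27 reversed, 14 fell below it and 6 passed it. The count of members called was 3 in MI vs. Sham (1 to 2 with 1 rat left out), 1 in MI + DAPA (1st d) vs. MI (0 to 1) and 3 in treated vs. Sham rats (1 to 3). Relative to Tnnt2 it was 1 (0 to 1), 0 (0 to 0) and 1 (1 to 2). Leaving out an infarcted rat removed Kcnj2 from the tests against group Sham, and leaving out a Sham rat removed Kcnd3 from MI vs. Sham, so that fewer genes were tested. The 1 member called relative to Tnnt2 in MI vs. Sham was Kcnd3, not Kcnj2, without MI rat 2. With the adjusted p alone the count became 0 in treated vs. MI rats and 0 in MI vs. Sham relative to Tnnt2, and with the unadjusted p alone 2 in treated vs. MI rats. In MI vs. Sham relative to Tnnt2 it was 2 with a pseudocount of 0.1 and 0 with at least 10 reads in every rat, which left Kcnj2 out. Scaled to all reads it was 5 in treated vs. Sham rats, and with the mean of the cardiomyocyte list as the reference it was 2 relative to Tnnt2.

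Scaling to all reads reversed Kcnj11 (0.64), Kcnq1 (0.58), Gja1 (0.88) and Gja5 (0.70) in MI vs. Sham and Kcnh2 in treated vs. Sham rats (0.19), by the shift of all genes given above. Kcnj11 in treated vs. MI rats relative to Tnnt2 became 0.11 with a pseudocount of 0.1 and 0.0031 with the cardiomyocyte mean. With 1 rat left out, values whose sign turned were Kcnj11 in MI vs. Sham (-0.65 to 0.20), Kcnj2 in treated vs. MI rats (-0.18 to 0.13), and in treated vs. Sham rats Kcnip2 (-0.22 to 0.17) and Kcnq1 (-0.13 to 0.45). Relative to Tnnt2 they were Gja1 (-0.19 to 1.25) and Gja5 (-0.042 to 1.09) in MI vs. Sham, Kcnj11 in treated vs. MI rats (-0.31 to 0.10) and Gja5 in treated vs. Sham rats (-0.45 to 0.093). The log2 ratio of Gja5 to Gja1 ran from -0.32 to 0.13 in MI vs. Sham and from -0.042 to 0.33 in treated vs. Sham rats, and that of Kcnip2 to Kcnd3 from -0.13 to 1.67 in treated vs. MI rats. None of these was called. The cause of each was not tested.

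No source says that the replicate numbers pair the rats. Deviations of rats with the same number correlated at -0.01 to 0.07 in MI vs. Sham, -0.32 to 0.03 in treated vs. MI rats and -0.01 to 0.20 in treated vs. Sham rats. Rats with different numbers gave -0.14 to 0.11, -0.18 to 0.34 and -0.24 to 0.14. With so few pairs these values cannot settle whether the numbers pair the rats. With the replicate block the counts of members called were 3, 1 and 3, and 1, 0 and 1 relative to Tnnt2, as without it.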

Other observations

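Genes closest to the other members over the 9 rats, by Pearson's r of log2(FPKM + 1) among 14157 genes, were picked as the best of many and are descriptions over points that fall into 3 groups. Nearest to Kcnd3 were Taz, whose mean was 27.0 FPKM in Sham rats, 15.03 in MI rats and 16.2 in treated rats (r = 0.992), and Mapk11, the stress kinase p38 beta, at 7.92, 0.833 and 1.76 FPKM (r = 0.989). Mapk11 thus had a course much like that of Kcnd3 itself. Nearest to Kcnip2 was Oxld1 (r = 0.946), at 10.7, 6.22 and 11.6 FPKM, followed among named genes by Coq8a, a kinase-like protein of coenzyme Q synthesis, at 34.4, 19.6 and 35.8 FPKM (r = 0.910). Nearest to Gja5 were Gtf2f1, a subunit of the general transcription factor TFIIF (r = 0.933), and Rpp38, a subunit of ribonuclease P (r = 0.929). Kcnq1 lay closest to Slc35f5 (r = 0.947) and Gja1 to Vbp1 (r = 0.923), and for neither did a channel or junction gene rank among the first 3.

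Between members, Kcnj11 and Tnnt2 had r = 0.913 over the 9 rats, Kcnd3 and Kcnh2 r = 0.828, and Kcnd3 and Kcnj2 r = -0.901. Gja1 and Tnnt2, both made by working ventricular muscle, had r = 0.158. MI rat 2 had 33.1 FPKM of Gja1 beside 489 of Tnnt2.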
